A study of Mus musculus with 11 samples.

Results

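The Tnfrsf11b Ndnf Smpd3 cells are cells of mouse neuroblastomas in which transcripts of 3 genes of secreted or membrane-bound proteins were counted together. Tnfrsf11b encodes osteoprotegerin, Ndnf a secreted neurotrophic factor and Smpd3 the neutral sphingomyelinase 2. A cell was a member when these genes gave at least 3 UMIs (unique molecular identifiers, each marking 1 captured transcript) and at least 2 of them were detected. It also had to hold at most 4 UMIs of Col1a1, Col1a2, Col3a1, Dcn and Lum together, and none of Ptprc (CD45, on leukocytes) or Pecam1 (CD31, on endothelium). The rule found 2299 members among 73170 kept cells, and 2258 of them came from a single mouse, NB853. The rule had been drawn from a cluster of that mouse, so shares and levels in NB853 describe the choice and were not tested.

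Tumors came from Dbh-iCre;LSL-MYCN mice, a genetically engineered mouse model (GEMM) on the 129X1/SvJ background in which Cre driven by Dbh switches on human MYCN in Dbh-expressing, sympathoadrenal cells. All mice of both groups carried these alleles, and the tumor cells, stroma and leukocytes of a tumor came from the same mouse. Cisplatin at 2 mg/kg was given to 6 mice, of which NB853, NB847 and NB839 recur in the results, and tumors were harvested 24 h later. Another 5 mice were controls, of which NB831 and NB837 carry the treatment label DMSO and NB855, NB856 and NB864 the label vehicle, and all 5 are called vehicle-treated here. Each mouse gave 1 library of papain-dissociated tumor, and the age of each mouse was not given in the labels. Only mouse genes are listed in the count matrices, so the MYCN transgene could not be used to mark tumor cells.

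Osteoprotegerin is a soluble decoy receptor that binds RANKL and so limits the formation of osteoclasts, and osteoblasts and stromal cells are known sources of it. Neutral sphingomyelinase 2 splits sphingomyelin into ceramide and phosphocholine and is needed for the mineralization of bone and cartilage. Sparc (osteonectin) is a collagen-binding matricellular protein, and Itga4 is the integrin α4 chain, carried by leukocytes and neural crest derivatives. On GRCm38, Tnfrsf11b lies at chr15:54250619-54278484 on the minus strand, Ndnf at chr6:65671590-65712326 on the plus strand and Smpd3 at chr8:106252548-106337988 on the minus strand.

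Members made up 13.6% of the 16630 kept cells of NB853 (2258 cells, 95% Wilson interval 13.1 to 14.1%). The next highest share was 0.985% in NB847, with 14 of 1421 cells. NB831 and NB837 held 7 members each, NB839, NB849 and NB887 held 3 each, and NB855 and NB856 held 2 each. NB864 and NB883 held none, which allows shares of up to 0.0583% and 0.0521%. Mice given cisplatin had a mean share of 2.45% ± 5.46 (SD, n = 6). Vehicle-treated mice had one of 0.0624% ± 0.0513 (SD, n = 5). This difference of 2.39 percentage points rests on NB853 and is given with no test. In the 10 mice that the rule did not use, the share was 0.224% ± 0.426 (SD, n = 5) with cisplatin, a difference of 0.162 percentage points that was smaller than the spread between mice (exact permutation test over 252 splits, two-sided, n = 5 and 5, p = 0.833; the smallest p this design allows is 0.00794). That direction rests on NB847: without it as well, the share was 0.0339% ± 0.0243 (SD, n = 4) with cisplatin, below that of vehicle-treated mice (exact permutation test over 126 splits, two-sided, p = 0.357). These shares were not matched for depth. The median of the other kept cells ran from 5375 UMIs in NB853 to 34899 UMIs in NB831.

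Over all kept cells of each mouse, Ndnf stood at 87.8 CPM (UMIs of the gene scaled to the same total of UMIs in each sum) in NB853 and between 0.01 and 2.02 CPM in the other 10 mice. Tnfrsf11b stood at 27.3 CPM in NB853 and between 0.015 and 1.81 CPM elsewhere. All 3 genes had UMIs in every tumor, but the third, Smpd3, differed less in level. It stood at 145 CPM in NB853, at 95.3 CPM in NB839, the next highest, and at 20.6 CPM in NB847, the lowest. In such sums over a tumor, more cells of a kind and more RNA per cell cannot be told apart. The difference was not confined to members. In kept cells that were not members, Ndnf stood at 41.4 CPM in NB853 and at no more than 1.98 CPM in the other 10 mice. Tnfrsf11b stood at 12.5 CPM in such cells of NB853 and at no more than 1.52 CPM elsewhere. Smpd3 stood at 85.8 CPM in them, below the 95.3 CPM of NB839. The source of these UMIs was not tested.

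**Figure D1:**
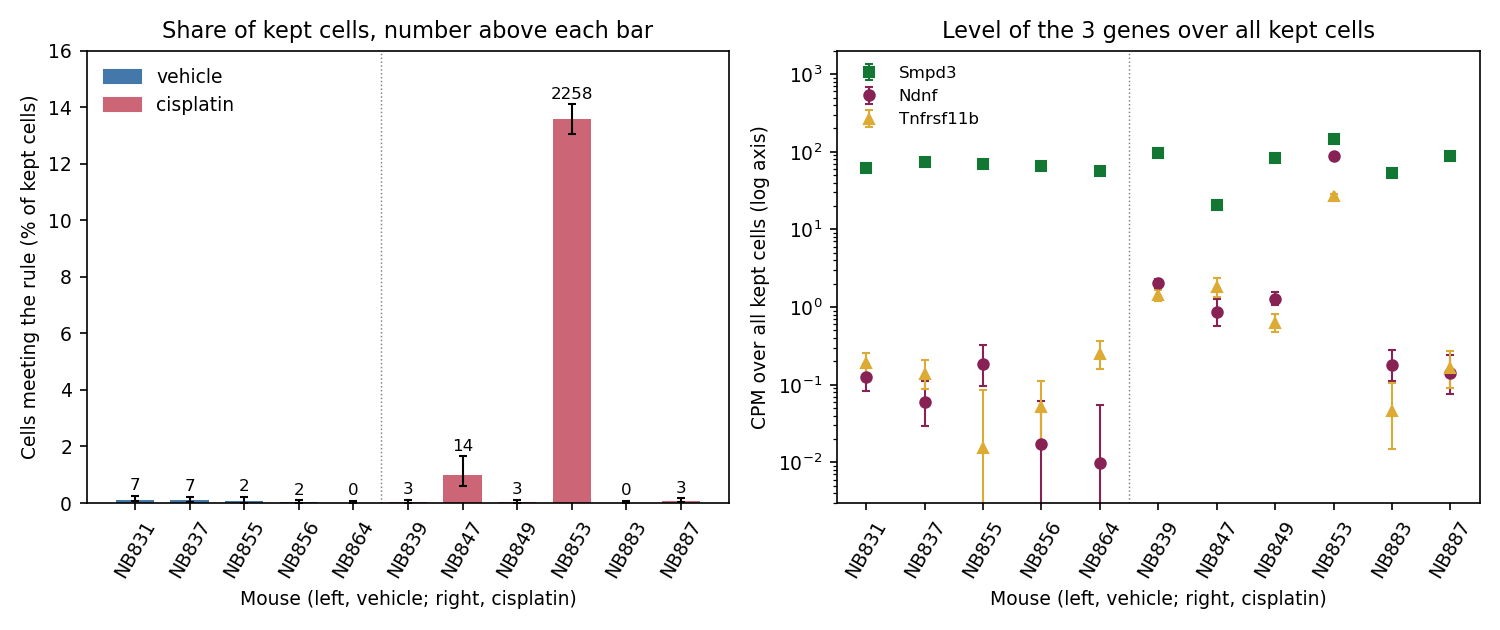
Left, cells meeting the rule as a percentage of kept cells in each mouse, with the number of cells and 95% Wilson intervals; right, CPM of Smpd3, Ndnf and Tnfrsf11b over all kept cells of each mouse on a log axis, with 95% Poisson intervals that cover counting error only (lower ends under the axis are not drawn). NB853 stands alone at 13.6%, and its Ndnf and Tnfrsf11b levels lie above those of the other 10 mice, whereas Smpd3 differs less.

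The 73170 kept cells came from 93344 barcodes, with 1421 to 16630 cells per mouse. Across libraries, 686 barcodes of kept cells were seen in at least 2 mice, and 31 of the 2258 members of NB853 carried such a barcode. Members of NB853 had more UMIs than the other kept cells of that mouse, with a median of 8155 against 5375, and more detected genes, with a median of 2985 against 2218.5. A rule that asks for 3 UMIs favours deep cells, so a share was also taken after each cell had been thinned to 5000 UMIs. In NB853, 10.2% of cells (973 of 9553) then met the rule, with 7077 shallower cells left out. After the same thinning NB849 held 2 members, NB847 held 1 (0.0923% of 1083 cells), NB855 held 1 and every other mouse 0. The median mitochondrial share in NB853 was 2.39% in members and 2.37% in the other cells.

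Within NB853, 703 members held all 3 genes, 1265 held Ndnf and Smpd3 only, 193 held Tnfrsf11b and Smpd3 only, and 97 held Tnfrsf11b and Ndnf only. The summed count was 3 in 636 members, 4 in 427, 5 to 7 in 582 and 8 or more in 613, with a median of 5 and a highest value of 250. UMIs of these genes were also counted in cells with a Ptprc UMI, and their source was not tested. Among 544 cells with a Ptprc UMI, at a median depth of 7743 UMIs, 33.8% had an Ndnf UMI, 12.3% a Tnfrsf11b UMI and 45.04% an Smpd3 UMI. In the other kept cells these shares were 20.5%, 6.18% and 34.2%, and in members, by the rule, 91.5%, 44.0% and 95.7%. Among Ptprc cells 43.6% had a Sparc UMI and 20.2% an Itga4 UMI, against 67.2% and 29.3% of members.

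In the 636 members with exactly 3 UMIs, just inside the rule, Wif1 stood at 408 CPM, Sparc at 133 CPM, S100a6 at 1076 CPM, Itga4 at 28.9 CPM and Iigp1 at 23.9 CPM. Just outside it, in 818 cells with 2 UMIs of 2 genes, these values were 351, 124, 924, 23.8 and 16.8 CPM. In 512 cells with 3 or more UMIs of 1 gene only they were 345, 136, 758, 16.3 and 13.4 CPM, so Sparc differed little across the limit while Itga4 and Iigp1 were lower outside. A further 310 cells of NB853 met the UMI rule and were left out for their collagen UMIs, and these held Sparc at 571 CPM, Ibsp at 73.2 CPM and Sp7 at 15.5 CPM. Another 142 cells were left out for a Ptprc or Pecam1 UMI, with Sparc at 170 CPM (169.7) and Ibsp at 1.73 CPM.

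To describe what else the members of NB853 expressed, their UMIs were summed and compared with 4 sums of the same mouse. These were the 14372 other kept cells, 4102 tumor cells (at least 3 UMIs over a set of sympathoadrenal genes that includes Th, Dbh, Ddc, Chga and Chgb, with 2 of the set detected), 338 collagen cells (at least 10 UMIs of the 5 collagen and stromal genes of the rule) and the 544 Ptprc cells. These classes were set by UMIs of a few genes and may be mixed. A ratio is that of CPM + 10 in 2 sums, for 14235 genes with at least 50 UMIs. NB853 is a single library, so the ratios have no replicate check and no p-value, and intervals cover counting error only.

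Against the other kept cells, 126 of 14235 genes (0.885%) were at least 1.5-fold higher in members and 10 (0.0702%) at least 1.5-fold lower, the 10 genes of the rule left out. The median ratio over all genes was 1.00, and 21 genes were at least 2-fold higher and 0 at least 2-fold lower. Against tumor cells the counts were 194 (1.36%) higher and 4 (0.0281%) lower, and against collagen cells 31 (0.218%) higher and 445 (3.13%) lower. Against Ptprc cells they were 135 (0.948%) and 377 (2.65%). Members with at least 8 UMIs of the 3 genes differed from the other cells in more genes, with 523 (3.67%) higher and 59 (0.414%) lower. When members were set against other cells of the same clusters, only 21 genes remained at least 1.5-fold higher, all of them among the 126.

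The genes of the rule were highest by construction, with Ndnf at 284 CPM in members and 41.4 CPM in the other cells, Smpd3 at 396 and 85.8 CPM, and Tnfrsf11b at 89.7 and 12.5 CPM. In the 613 members with at least 8 UMIs they reached 559, 811 and 175 CPM. Both genes of the label that the rule did not read were higher in members too. The rule was drawn from this mouse, and both are leading genes of its cluster richest in members. Their levels are thus a description and no check. Itga4 stood at 55.4 CPM (95% Poisson interval 52.5 to 58.4) against 21.4 CPM, and Sparc at 274 CPM (268 to 281) against 148 CPM. Sparc was nonetheless highest in the collagen cells, at 1465 CPM, and Itga4 at 76.5 CPM there also exceeded its level in members.

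**Figure D2:**
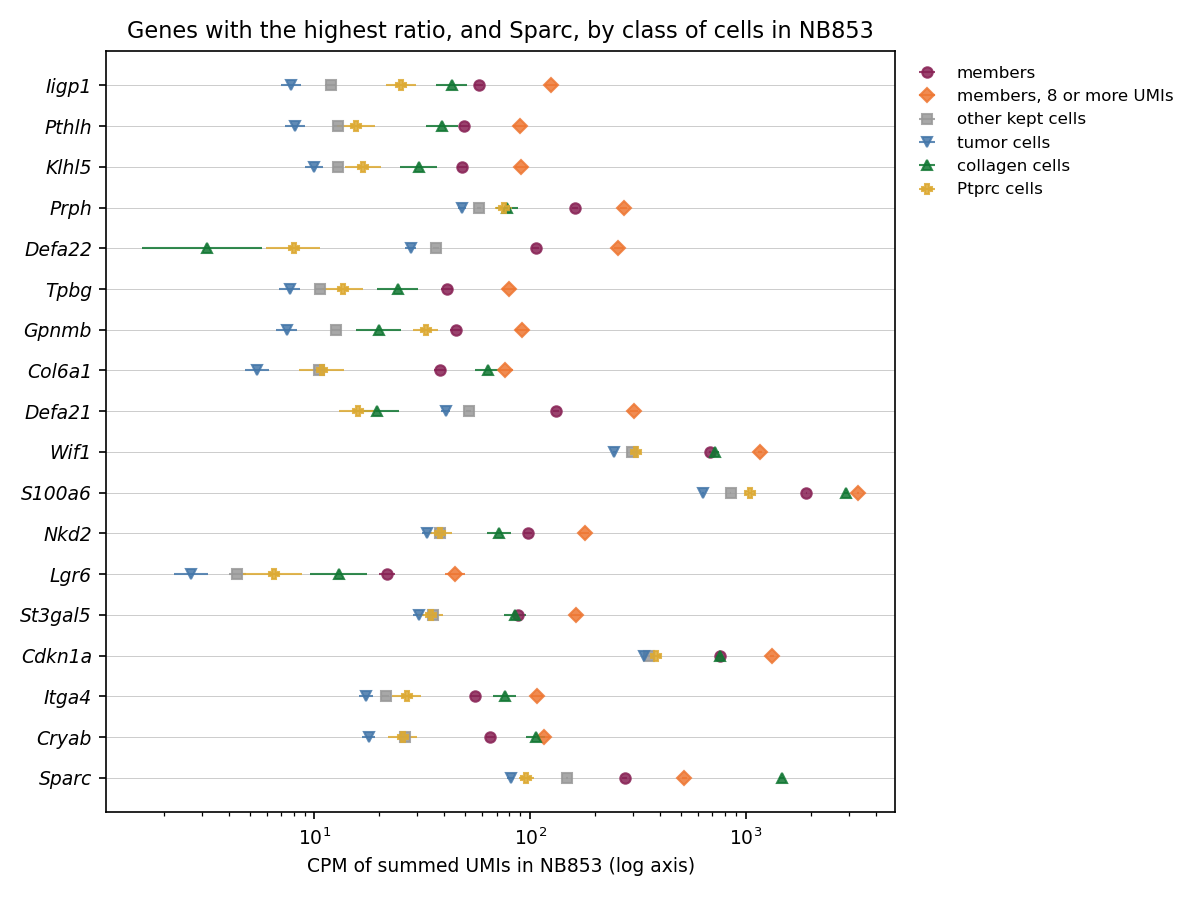
Level of the genes with the highest ratio in members of NB853, and of Sparc, as CPM of summed UMIs on a log axis, in members, members with at least 8 UMIs of the 3 genes, other kept cells, tumor cells, collagen cells and Ptprc cells, with 95% Poisson intervals (counting error only). Members lie above the other kept cells and tumor cells in each row, while collagen cells hold more Sparc, S100a6, Col6a1, Cryab, Itga4 and Wif1 than members do, and about as much Cdkn1a and St3gal5.

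Wif1, Nkd2 and Lgr6 were among the genes with the highest ratios. Wif1, a secreted inhibitor that binds Wnt ligands, stood at 681 CPM in members against 295 CPM in the other cells (ratio 2.27) and at 1160 CPM (1159.6) in members with 8 or more UMIs. Collagen cells held it at 721 CPM, slightly above members as a whole. Nkd2, a feedback inhibitor that binds Dishevelled, stood at 97.6 against 38.2 CPM (ratio 2.23), and Lgr6, a receptor for R-spondins, at 21.7 against 4.39 CPM (ratio 2.20). Of 10 Wnt target genes listed, 1 was at least 1.5-fold higher and 0 were lower, beside 0.885% and 0.0702% of all genes, and the median ratio of the list was 1.20. That gene was Dkk1, a secreted antagonist of the Wnt co-receptors Lrp5 and Lrp6, at 24.3 against 10.9 CPM. Tcf7 stood at 41.4 against 24.7 CPM, Axin2 at 90.1 against 57.6 CPM and Znrf3 at 50.6 against 34.5 CPM, whereas the Wnt effector Lef1 stood at 177 and 182 CPM. Across mice, Wif1 was at 369 CPM over all kept cells of NB853, at 198 CPM in NB887 and at no more than 4.49 CPM in the other 9. NB887 thus had the second highest Wif1 with Ndnf at 0.141 CPM and Tnfrsf11b at 0.163 CPM.

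Pthlh, which encodes the parathyroid hormone-related protein and was not on the skeletal list, stood at 49.4 CPM against 12.8 CPM (ratio 2.60). Over all kept cells Pthlh stood at 19.8 CPM in NB853 and 13.8 CPM in NB847. Genes of bone-forming cells were counted in members at low levels. Sp7 (osterix), a transcription factor of osteoblasts, stood at 14.0 CPM in members and 28.8 CPM in those with at least 8 UMIs, against 4.26 CPM in the other cells. Runx2, which acts upstream of Sp7, stood at 9.67 against 3.55 CPM. Ibsp (bone sialoprotein) stood at 17.8 against 8.68 CPM and Alpl (alkaline phosphatase) at 6.26 against 3.06 CPM, but both were higher in collagen cells, at 141 and 25.2 CPM. Of 7 listed skeletal genes with at least 50 UMIs, 1 (Sp7) was at least 1.5-fold higher and 0 lower, beside 0.885% and 0.0702% of all genes, and the median ratio was 1.24. Acan and Col2a1 of cartilage had no UMI in members. In the RANK system, Tnfsf11 (RANKL) and the related ligand Tnfsf10 had no UMI in members, and the receptor of RANKL, Tnfrsf11a, stood at 0.634 against 0.656 CPM.

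Among 16 enzymes of sphingomyelin and ceramide with at least 50 UMIs, 2 were higher and 0 lower, beside 0.885% and 0.0702% of all genes, with a median ratio of 1.07: Smpd3, high by construction, and Sgms2, a sphingomyelin synthase that acts at the plasma membrane. Sgms2 stood at 18.5 against 7.66 CPM. Smpd1, the lysosomal acid sphingomyelinase, stood at 37.1 against 26.2 CPM (ratio 1.30), and Sgpl1, which degrades sphingosine 1-phosphate, at 23.5 against 18.9 CPM. The glycolipid enzyme St3gal5, which makes ganglioside GM3, stood at 87.8 against 35.4 CPM (ratio 2.16).

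Of 18 fibroblast genes, 3 were at least 1.5-fold higher and 0 lower, beside 0.885% and 0.0702% of all genes, with a median ratio of 1.05: Col6a1 and Col6a2, chains of collagen VI, and the surface glycoprotein Thy1. Col6a1 stood at 38.2 against 10.5 CPM, Col6a2 at 16.3 against 5.25 CPM and Thy1 at 40.9 against 22.2 CPM. The third chain, Col6a3, stood at 2.30 and 3.60 CPM, and Pdgfra, a receptor that marks fibroblasts, at 1.55 and 1.22 CPM. The list summed to 703 CPM in members, 617 CPM in the other cells and 2054 CPM in collagen cells. Among 15 matricellular genes with at least 50 UMIs, Sparc and its relative Sparcl1 were at least 1.5-fold higher, the latter at 143 against 70.1 CPM. Of 14 such integrin chains 1, Itga4, passed this ratio. A list of 13 mesenchymal genes held 2 higher ones, Sparc and Col6a2, and 4 lower ones, Col1a1, Col1a2, Col3a1 and Dcn, which the rule itself kept low. Of 10 pericyte and smooth muscle genes 2 were higher and 0 lower, against the same 0.885% and 0.0702%, with a median ratio of 1.00, and the pericyte genes Pdgfrb, Kcnj8 and Abcc9 had ratios of 0.98, 0.96 and 0.92. The 2 were Acta2 and Tagln, contractile proteins of smooth muscle, which stood at 26.4 against 10.6 CPM and 16.3 against 7.19 CPM in members, but at 19.6 and 13.02 CPM in those with 8 or more UMIs.

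Cdkn1a, the p53-induced inhibitor p21 of cyclin-dependent kinases, stood at 762 CPM in members against 357 CPM in the other cells and at 1322 CPM in members with at least 8 UMIs. Its level in collagen cells, 755 CPM, was close to that in members. It was the only 1 of 16 p53 target genes at least 1.5-fold higher, with 0 lower, beside 0.885% and 0.0702% of all genes, and the median ratio of the list was 1.00. Phlda3 stood at 106 against 79.8 CPM, and Mdm2, the ubiquitin ligase of p53, at 24.8 and 25.5 CPM. Over all kept cells Cdkn1a was at 104 to 434 CPM in the 6 cisplatin-treated mice and at 8.32 to 83.6 CPM in the 5 vehicle-treated mice. Cycle genes were slightly lower in members. None of 14 S phase and 16 G2/M genes had a ratio above 1, with sums of 955 against 1096 CPM and 2465 against 2823 CPM, and 0 of them were 1.5-fold lower. Both lists had a median ratio of 0.89, beside 1.00 over all genes. The share of all genes with a ratio under 1 was not counted.

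S100a6, a calcium-binding protein, stood at 1908 CPM in members against 849 CPM, and the small heat shock protein Cryab at 65.5 against 26.3 CPM. Iigp1, an interferon-inducible GTPase, had the highest ratio outside the rule, 3.09, at 57.6 against 11.9 CPM. The transmembrane glycoproteins Tpbg and Gpnmb stood at 41.2 against 10.7 CPM and 45.3 against 12.6 CPM, and Klhl5, of the Kelch family, at 48.3 against 12.9 CPM. Among receptors, Fgfr1 stood at 48.1 against 21.4 CPM and Ngfr, the low-affinity neurotrophin receptor, at 15.5 against 6.17 CPM. Etv5, a factor downstream of FGF receptors, stood at 11.7 against 4.10 CPM. Of 14 FGF receptors and targets with at least 50 UMIs, 2 were at least 1.5-fold higher and 0 lower, with a median ratio of 1.13. Over all genes these shares were 0.885% and 0.0702%. Hes6, of the Hes family, stood at 321 against 189 CPM, and was the only one of 13 Notch pathway genes at least 1.5-fold higher, with 0 lower, beside 0.885% and 0.0702% of all genes.

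The α-defensins Defa22 and Defa21, antimicrobial peptides of Paneth cells, had ratios of 2.49 and 2.29, yet only a few cells held them. The 10 highest members carried 92.4% of the Defa22 UMIs and 88.1% of those of Defa21, and 5.00% of members had a Defa22 UMI against 3.53% of the other cells. For the other highest genes the same 10-cell share ran from 7.09% for Wif1 to 22.5% for Gpnmb and 23.7% for Iigp1. These defensin genes are near-identical copies, so their reads could be split between them, and both were also counted in NB849, with Defa22 at 61.7 CPM and Defa21 at 61.0 CPM over all kept cells.

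Neuroblastoma transcripts were counted in members at about the level of the other cells. Prph, the intermediate filament peripherin of peripheral neurons, was higher in members, at 161 against 58.0 CPM (ratio 2.51). Of 12 neuroblastoma genes with at least 50 UMIs, 0 were 1.5-fold higher or lower, beside 0.885% and 0.0702% of all genes, and the list summed to 1498 CPM in members, 1613 CPM in the other cells and 1850 CPM (1849.9) in tumor cells, which were chosen by some of these genes. Gata2 stood at 75.6 against 57.1 CPM and Chga at 164 against 131 CPM, whereas Phox2a stood at 243 against 297 CPM and Dbh at 15.9 against 21.7 CPM. Hand2, a factor of sympathetic neurons, was at 349 and 367 CPM. Ptprc cells had the list at 1414 CPM (1413.5), near the level in members, and the source of these UMIs was not tested. Neuronal cytoskeleton and outgrowth genes summed to 8926 against 9376 CPM. Schwann cell genes summed to 30.4 against 23.1 CPM, most of it Ngfr, the 1 of 6 genes at least 1.5-fold higher (0.885% of all genes were), and Mbp, a myelin protein, at 10.7 against 13.1 CPM. Sox10, Foxd3 and Cdh19 had no UMI in members.

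Of 8 chromaffin genes Penk was lower and 0 were higher, while Scg2 stood at 146 against 106 CPM. Of 11 NF-kB targets, Cxcl1 and Ccl2 were lower and 0 higher, where 0.0702% of all genes were lower and 0.885% higher. A ratio past 1.5 in either direction was seen for 0 genes among 17 of BMP and TGF-beta signalling, 13 of basement membrane, 10 of hypoxia, 8 immediate early genes, 7 EMT transcription factors, 4 of bridge cells, 2 of melanocytes and 12 of the nucleolus. Their median ratios were 1.08, 0.98, 1.03, 0.99, 0.99, 0.90, 1.15 and 0.96 in that order.

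Markers of the other cell types of a tumor were also checked over their whole lists. These sums pool members of all clusters. The 10 macrophage genes summed to 706 CPM in members, 960 CPM in the other cells and 3657 CPM in Ptprc cells, all 10 with a ratio under 1 and 0 under the 1.5-fold limit. Their median ratio was 0.77, beside 1.00 over all genes. T and B cell genes summed to 6.42 and 7.37 CPM, and neutrophil genes to 78.8 CPM against 99.8 CPM. Endothelial genes summed to 25.8 against 27.8 CPM. Cells with a Ptprc or Pecam1 UMI are left out of members but not of the other cells. Lower leukocyte and endothelial sums thus follow in part from the rule. In tumor cells, held to the same limits, macrophage genes summed to 660 CPM and T and B cell genes to 5.58 and 7.92 CPM. Neutrophil and endothelial genes summed to 71.9 and 22.0 CPM there, and only B cell genes lay above their sum in members. In members, mesothelial genes summed to 0.198 CPM, with Msln, Upk3b and Krt8 at 0. Adrenocortical genes summed to 0.634 CPM, with Cyp11b1, Cyp21a1, Hsd3b1 and Mc2r at 0. Epithelial genes summed to 3.29 CPM. The 4 globin genes summed to 36559 CPM in members and 42461 CPM in the other cells. The part of RNA from other cells in these levels was not tested.

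Among the genes lowest in members, several were highest in collagen cells. Ly6a stood at 5.19 against 19.01 CPM, Mfap5, a microfibril protein, at 5.67 against 18.5 CPM, Penk (proenkephalin) at 1.35 against 9.38 CPM and the chemokine Cxcl1 at 2.93 against 11.6 CPM. In collagen cells these were at 290.2, 305, 146 and 163 CPM. Wfdc17 stood at 107 against 184 CPM, and at 1013 CPM in Ptprc cells. Against tumor cells, a class that leaves out collagen and Ptprc cells, the ratios of these 5 genes lay between 0.97 and 1.06.

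The levels of these genes, which were chosen by their ratio in members, were also set against the number of UMIs of the 3 rule genes after thinning, as a description. The groups with few such UMIs still hold members, since thinning removes UMIs of the rule genes too. Cells of NB853 thinned to 5000 UMIs, within the limits of the rule on collagen genes, Ptprc and Pecam1, were grouped by that number into 4603 cells with 0, 2295 with 1, 936 with 2, 619 with 3 or 4, 382 with 5 to 9 and 177 with 10 or more. In that order Wif1 stood at 240 (239.9), 316, 400.2, 576, 925 and 2124 CPM. S100a6 went from 661 to 5729 CPM, Cdkn1a from 311 to 2418 CPM, Sparc from 79.6 to 958 CPM and Prph from 49.3 to 425 CPM, each higher in every group than in the one before. Itga4 went from 16.1 to 238 CPM, Pthlh from 8.34 to 181 CPM and Sp7 from 2.65 to 47.5 CPM.

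Other genes did not follow. Hand2 stood between 349 and 418 CPM in all 6 groups. Isl1, a LIM factor of sympathetic neurons, stood at 318 CPM in cells with 0 UMIs and 172 CPM in those with 10 or more. The mitotic gene Ube2c went from 807 to 319 CPM and Top2a from 245 to 153 CPM. C1qa of macrophages went from 96.7 to 30.5 CPM and the globin Hbb-bs from 25829 to 16461 CPM. Defa22 stood at 169 CPM in the group with 5 to 9 UMIs and at 2.26 CPM in that with 10 or more.

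**Figure D3:**
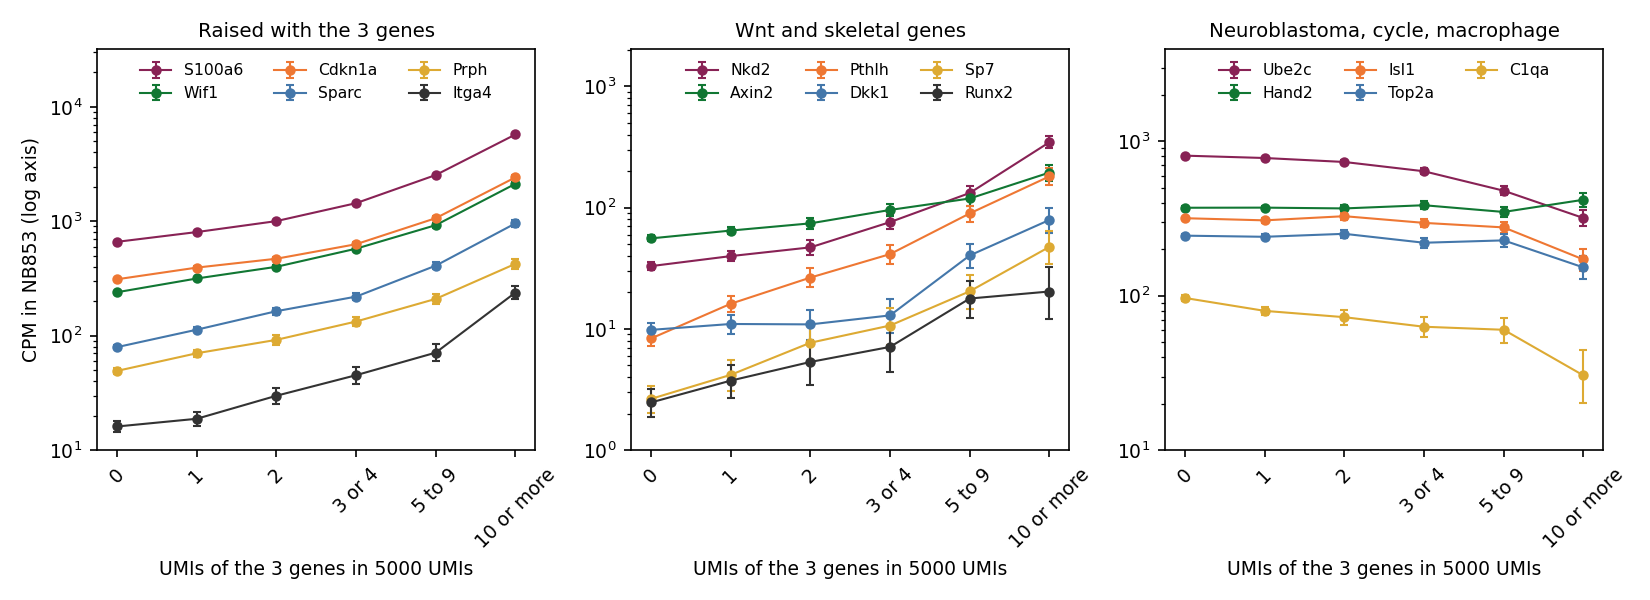
Level of selected genes as CPM on log axes in cells of NB853 thinned to 5000 UMIs, grouped by the UMIs of Tnfrsf11b, Ndnf and Smpd3 left in each cell, with 95% Poisson intervals (counting error only). S100a6, Wif1, Cdkn1a, Sparc, Prph and Itga4 are higher in each group than in the one before, Hand2 stays between 349 and 418 CPM, and Ube2c, Isl1 and C1qa are lowest in the last group.

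To see where members lie among the cells of NB853, its 16630 cells were clustered with the 10 genes of the rule left out, which gave 27 clusters. Members made up the highest shares in 2 of them. They made up 52.3% of the 1105 cells of cluster 7 (578 members, 95% Wilson interval 49.4 to 55.2%), led by Col6a1, Ibsp, Pthlh, Clu and Sparc. They made up 44.7% of the 405 cells of cluster 13 (181 members, 39.9 to 49.6%), led by Igf2, Slc24a2, Chst2, Mt3 and Prelp. These clusters together held 759 members, which is 33.6% of all, and 61.3% of those with at least 8 UMIs. The 6 clusters in which at least 10% of cells had a Ptprc UMI held 138 members (9.43% of their cells). Members there held the macrophage genes Lyz2 at 1229 CPM and C1qa at 245 CPM, against 1258 and 347 CPM in the other cells of these 6 clusters. In clusters 7 and 13, members held them at 135 and 28.5 CPM. The remaining 19 clusters held 1361 members (9.97% of their cells).

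These 19 clusters, which held 60.3% of the members, were led by cell cycle genes, globins, Rspo3 and other genes, so the name of the cells stands for their rule and not for 1 cluster. They include clusters with leukocyte genes among their leading genes in which fewer than 10% of cells had a Ptprc UMI. These are cluster 9 (S100a9 and S100a8, 94 members), cluster 10 (Folr2 and Mrc1, 76 members), cluster 11 (Arg1 and Lyz2, 72 members) and cluster 5 (151 members). Cluster 5 was led by 8430408G22Rik, Rbp7 and Gng11, with Tyrobp and Cd74 after them, at a median of 12187 UMIs. In it 271 cells met the UMI rule before the limits on collagen genes, Ptprc and Pecam1. Cluster 26 (35 cells, led by Acta2, Tagln and Myl9) had 15 members (42.9%), a share close to that of cluster 13. Cluster 23 (82 cells, with a median of 19279 UMIs) had 30 (36.6%). Cluster 25, led by Ibsp, Sgms2, Sparc and the osteoblast gene Ifitm5, had 4 members among 44 cells, although 20 of its cells met the UMI rule before the collagen limit. Among members of NB853, 6.86% (155) were within the 6% of its cells with the highest doublet score. This share was 3.03% in clusters 7 and 13, 10.1% in the clusters with Ptprc and 8.67% in the others. With coarser clustering the highest member shares of a cluster were 47.5% and 22.0%, and with finer clustering 55.3% and 38.1%, so the second cluster rich in members depended on the resolution.

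**Figure D4:**
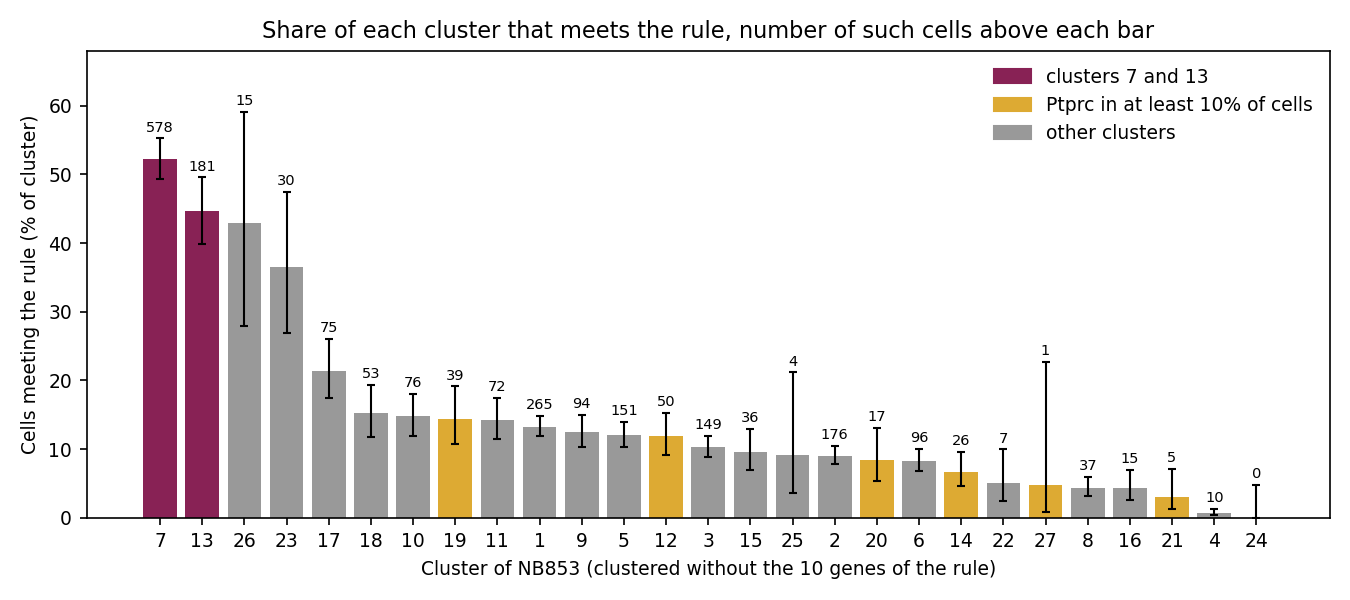
Percentage of each cluster of NB853 that meets the rule, with the number of members above the bar and 95% Wilson intervals; clusters were made without the 10 genes of the rule. Clusters 7 and 13 stand at 52.3% and 44.7%, clusters 26 and 23 at 42.9% and 36.6% with wide intervals, and most others lie between 3% and 16%.

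The 2 sets of members differed in level. In clusters 7 and 13, members held Wif1 at 1333 CPM, Cdkn1a at 1483 CPM, Sparc at 648 CPM and S100a6 at 3715 CPM (3714.5). In the 19 other clusters, members held these at 438, 491, 133 and 1181 CPM. Cells of clusters 7 and 13 outside the rule were nearer in level to the members there than members elsewhere were, with Wif1 at 1004 CPM, Cdkn1a at 904 CPM and S100a6 at 2901 CPM. In those 2 clusters Sparc was higher outside the rule, at 821 CPM. Cells outside the rule include those left out for collagen, Ptprc or Pecam1 UMIs. In cluster 7, 707 cells met the UMI rule and 578 were members. The part of the cells left out for collagen in the Sparc level was not tested. In the 2 clusters Sp7 stood at 32.7 CPM in members and 22.8 CPM outside. Within them the ratio of members to other cells was 2.01 for Gpnmb, 1.98 for Klhl5, 1.77 for Prph and 1.63 for Cdkn1a, but 1.32 for Wif1, 1.28 for S100a6 and 1.03 for Cryab.

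The 19 other clusters were pooled although their member shares differ, so the make-up of clusters enters these sums. In that pool members exceeded the other cells for genes that had been chosen by their ratio in members. Iigp1 stood at 30.04 against 8.42 CPM, Prph at 106 against 53.02 CPM, Wif1 at 438 against 261 CPM and Pthlh at 26.8 against 9.78 CPM. Defensins lay here, with Defa22 at 157 against 42.2 CPM, and at 10.4 against 9.34 CPM in clusters 7 and 13. Of the 17 genes with the highest ratio outside the rule, 11 were at least 1.5-fold higher than in other cells of the same clusters. These 11 include Defa22 and Defa21, of which 10 members carried 92.4% and 88.1% of the UMIs. Col6a1, Wif1, S100a6, St3gal5, Itga4 and Cryab were not 1.5-fold higher.

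**Figure D5:**
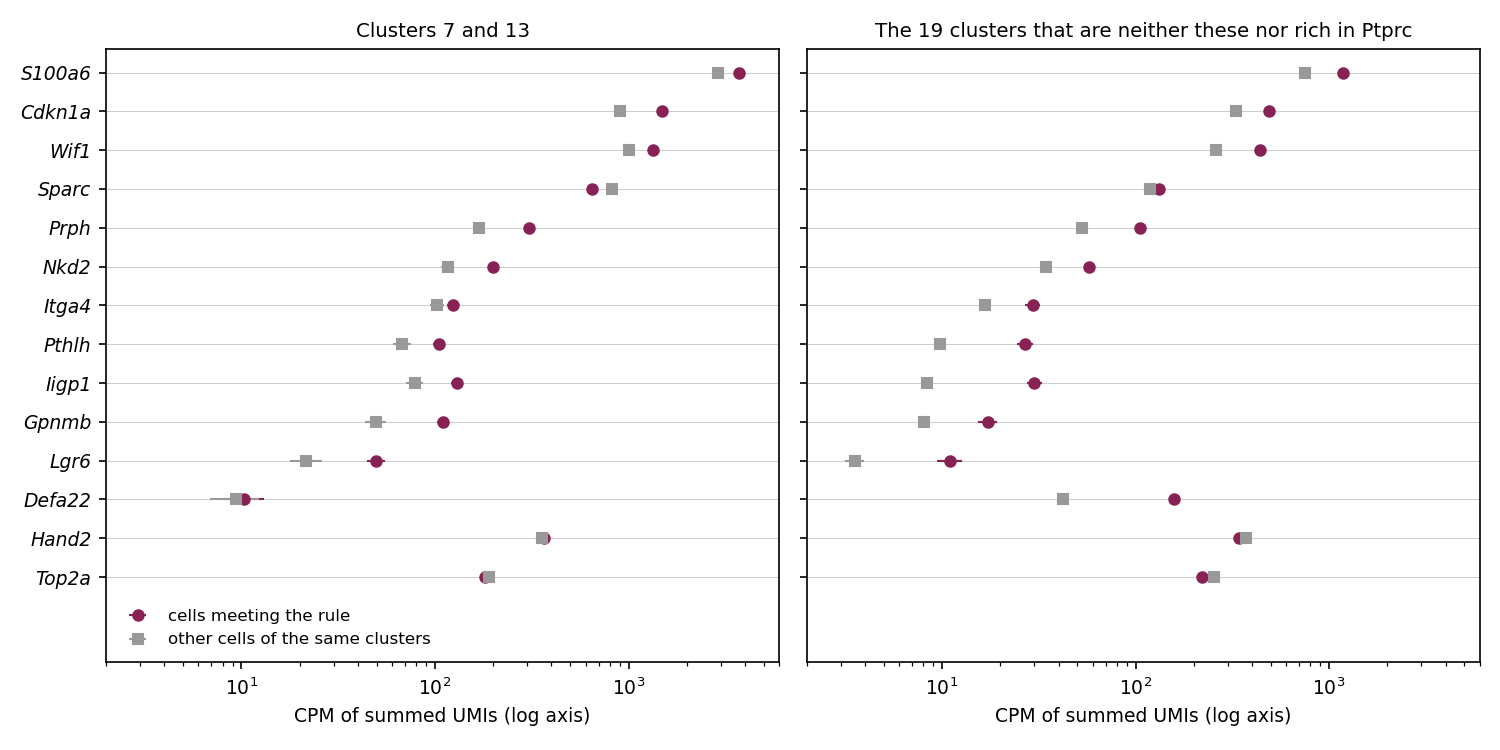
Level of selected genes as CPM on log axes in members and in other cells of the same clusters of NB853, with 95% Poisson intervals (counting error only); left, clusters 7 and 13; right, the 19 clusters that are neither these nor have Ptprc in at least 10% of cells. Members lie above the other cells for most genes in both panels, but most levels on the left are higher in both sets of cells. Sparc is lower in members on the left, where the other cells include those left out by the collagen limit. On the right, values are sums pooled over the 19 clusters.

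Outside NB853 the rule found 41 cells in 8 mice, too few for a comparison over mice, and their leading genes differed between mice. All 7 members of NB837, a vehicle-treated mouse, had at least 5% of their UMIs in 9 epithelial genes, and so had 6 of the 14 members of NB847. This held for 156 of the 56499 other kept cells of the 10 mice (0.276%) and for 0 members of NB853. Genes highest in the members of NB837 were the stomach genes Agr2, Gkn3, Tff2 and Muc6, with Tff2, a trefoil peptide of gastric mucus, at 90995 CPM against 1441 CPM in its other cells. In NB847 they were Pla2g1b, Pgc, Lypd8 and Muc6, with Pgc, the gastric proenzyme pepsinogen C, at 73161 CPM against 1063 CPM.

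Members of these 2 mice lacked several of the genes raised in NB853. They had no UMI of Sparc, Itga4, Wif1, Prph, Nkd2, Lgr6, Pthlh or Sp7, for which the upper ends of the 95% Poisson interval are 13.1 and 10.7 CPM. Th and Hand2 were at 0 as well. Other genes of that set were counted. S100a6 stood at 14290 CPM (14289.8) against 401 CPM in the other cells of NB837 and at 3602 against 2993 CPM in NB847. Cdkn1a stood at 221 against 83.4 CPM in NB837 but at 146 against 366 CPM in NB847, and St3gal5 and Klhl5 had 1 to 7 UMIs in each mouse. The remaining 20 members came from 6 mice and had epithelial genes at 1.82 CPM. They held Hand2 at 232 CPM against 221 CPM in the non-members of the 8 mice other than NB837, NB847 and NB853. Iigp1, Pthlh and Col6a1 had no UMI in them. Of their 130 Cdkn1a UMIs, 106 lay in the 3 members of NB887, at 1763 CPM against 184 CPM in its other cells, and without NB887 the level was 48.9 against 67.2 CPM. All 55 Wif1 UMIs lay in the same 3 cells, at 915 against 197 CPM, and the other 17 members had none. Of 23 Sparc UMIs 19 lay in the 3 members of NB839, at 203 against 237 CPM, and without NB839 the level was 8.75 against 43.03 CPM, while without NB831, whose 7 members had 1 UMI, it was 83.8 against 71.6 CPM.

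Only 1 mouse held at least 20 members, so neither members against other cells over several mice nor cisplatin against vehicle within members could be tested. The description of the cells in NB853 therefore rests on 1 tumor, and treatment and tumor cannot be told apart in it.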

How the data were processed

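Single-cell RNA-seq of tumors from 11 mice was analysed. The authors deposited 1 matrix of counts (UMIs per gene and barcode) per mouse, made with Cell Ranger 4.0 on mm10, per the labels, and not normalized; 2 matrices (NB831, NB855) carry header version 3.1.0. Barcodes were kept as cells from 500 genes and 1000 UMIs upward and up to 10% of UMIs in mitochondrial genes. The members, gene lists, classes and alternatives were chosen with earlier results of these data known.

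Member shares were tested by exact permutation over the 10 mice other than NB853; the test planned over all 11 is not given, since the rule was drawn from NB853. Planned edgeR comparisons of summed counts over mice needed at least 20 members in each of several mice; only NB853 had them, so none was run. Within NB853, UMIs of each class were summed to CPM, and ratios used a pseudocount of 10 CPM and a call at 1.5-fold for genes with at least 50 UMIs. Poisson and Wilson intervals (95%) cover counting error only, as cells of 1 mouse are not replicates. Cells were thinned to 5000 UMIs where depth could set a value. NB853 was clustered with scanpy 1.11.5 (2000 variable genes, 30 components, 15 neighbors, resolution 1, with 0.5 and 2 as alternatives; igraph 0.11.9; seed 1). Scrublet's automatic threshold marked 0 cells of NB853, so the 6% with the highest scores were marked. They stayed in the main values. On simulated counts for NB853, 200 of 200 changed genes were recovered within 0.25 on the log2 scale. These were well-counted genes with changes larger than 1.5-fold and counting noise only. The simulation thus does not cover genes near 50 UMIs or genes held by a few cells. Figures used matplotlib 3.10.9, tables pandas 2.3.3, tests scipy 1.17.1 and sums numpy 2.4.6, in Python 3.11.15. Gene positions came from GENCODE vM21.

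The genes named are those of the rule and label, the 20 highest and 10 lowest ratios in NB853 and up to 4 genes of each list. Lef1, Mdm2, Hand2, Isl1, Pdgfra, Col6a3, Ube2c, Top2a, C1qa, Hbb-bs, Tnfrsf11a, the leading genes of clusters and those of NB837 and NB847 were added after their values had been seen. The 40% limit for clusters 7 and 13 and the 5% limit on epithelial UMIs were likewise set afterwards. Cluster 26 (35 cells) also passed 40%, at 42.9%, but was not grouped with clusters 7 and 13. The 40% limit alone thus does not give the choice of clusters 7 and 13. Values of 1 gene are not reported here.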

Additional observations from a re-analysis of the deposited data

Results flagged for a closer look

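Each value here is the highest sample of its group, with a gap to the next mouse that exceeds Dixon's 95% limit. Of 44 group values examined, 11 were so marked. Chance marks about 1 in 20 only where values are normally distributed, which was not tested for these shares and CPM. That rate does not apply to the values of NB853. Genes share cells and libraries, so these are not independent.

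In 7 cases the mouse was NB853, among 6 cisplatin-treated mice. The rule was drawn from this mouse and the other genes were chosen by their ratios in it, so its marks follow from the choice and are a description. Its share of member cells was 13.6%, with 0.985% next. Over all its kept cells it stood at 27.3 CPM for Tnfrsf11b (next 1.81), 87.8 CPM for Ndnf (next 2.02), 20.6 CPM for Iigp1 (next 1.89), 77.7 CPM for Prph (next 9.79), 49.6 CPM for Nkd2 (next 5.62) and 7.70 CPM for Lgr6 (next 0.632).

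NB847, also cisplatin-treated, stood at 213 CPM for Gpnmb (next 62.9) and at 3000.13 CPM for S100a6 (next 1052 in NB853). Among the 5 vehicle-treated mice, NB837 stood at 425 CPM for S100a6 (next 23.9) and at 83.6 CPM for Cdkn1a (next 11.2). NB837 and NB847 are also the mice whose members held epithelial genes, and 1.96% and 1.78% of their other kept cells had at least 5% of UMIs in those genes. The part of these cells in the levels was not tested.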

How the results depend on the processing

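The mean share of member cells was higher with cisplatin in every alternative that includes NB853. This follows from the share of that mouse, from which the rule was drawn, and is no check. Without NB853 the difference of 0.162 percentage points rests on NB847. With both left out, chosen after seeing the data, it turned to -0.0285 percentage points. Alternatives that include NB853 are given with no p. Other choices of members, cells and libraries gave differences between 0.702 (all 3 genes required) and 3.19 percentage points (2 UMIs required). Leaving out each mouse in turn gave 0.162 (without NB853) to 2.88 percentage points. With the replicate number as a block, 5 pairs differed by 2.87 points, NB853 included; the numbers name separate mice and nothing in the labels pairs them.

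The count of genes at least 1.5-fold higher (126) and lower (10) moved as follows. Against tumor cells it was 194 and 4, with members of at least 5 UMIs 267 and 23, of at least 8 UMIs (members of 3 to 7 UMIs then counted as other cells) 499 and 52. A pseudocount of 5 CPM gave 212 and 31, and 20 CPM 72 and 3. Against other cells of the same clusters it was 21 and 4. The lower count was 19 against cells of nearest UMI total and 20 after thinning. Apart from the comparisons with cells of the same clusters and with 20 CPM, which kept 16.7% and 57.1% of the 126 genes, each setting kept at least 94.4%. The settings for UMIs, pseudocount, thinning, clusters and mitochondrial limit were chosen after seeing the data. Against tumor cells 4 genes turned from lower to higher, at log2 ratios of 0.029 for Ly6a, 0.087 for Mfap5, 0.028 for Cxcl1 and 0.013 for Wfdc17; collagen and Ptprc cells are left out of that class by construction.

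The fits over mice with edgeR or DESeq2, their filters, size factors, minimum numbers of members, left-out mice and replicate blocks were not run, since 1 mouse had 20 members.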
